A study of Mus musculus with 18 samples.

Results

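The mitochondrial genome encodes 37 genes, recognised by gene symbols that start with mt-: 13 mRNAs, 2 ribosomal RNAs and 22 transfer RNAs. The deposited table holds 15 of them, the 13 mRNAs and both ribosomal RNAs, of 20922 genes in all, and none of the transfer RNAs is analysed here. All 15 averaged 10 or more normalized counts across the libraries, the filter that 12262 genes passed, and all were tested. They were taken by symbol and not by their values, though the set was chosen with earlier results of these data known.

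RNA was sequenced from the tibialis anterior, the muscle at the front of the shin, of mice whose femoral artery was ligated in 1 limb as a model of peripheral artery disease. All mice carried Bmal1 fx/fx (loxP-flanked Bmal1, a clock gene) and received doxycycline by oral gavage, and surgery followed a week after the last dose. There were 4 libraries of BKO ligated, 5 of BKO intact, 4 of WT ligated and 5 of WT intact muscle, all collected on day 36 after surgery. BKO stands for the Bmal1 muscle knockout made with ACTA-rtTA-TRE-Cre, WT for its control, and intact for the limb of the other side. The labels give the Cre genotype as -/- for knockouts and +/+ for controls, the reverse of what a deletion by Cre needs, so which group lacks Bmal1 was taken from the names of the groups alone. No source used here gives age, sex or time of day of collection, and the labels do not say in so many words that each sample came from a separate animal.

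Mitochondria keep a small circular genome whose 2 strands are each transcribed as a long precursor, which is cut at transfer RNAs into ribosomal RNAs, mRNAs and transfer RNAs. The mRNAs encode the hydrophobic core subunits of respiratory complexes I, III and IV and of the ATP synthase, complex V, and the ribosomal RNAs build the mitochondrial ribosome that translates them. All other subunits of these complexes, and all proteins that copy, transcribe and process mitochondrial DNA and RNA, are encoded in the nucleus. Skeletal muscle is rich in mitochondria, so these genes take a large part of its RNA.

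Reads of 7 of the 13 mRNAs could not be assigned with certainty, because the nuclear genome holds near-identical copies of them. The copies are unprocessed pseudogenes that lie side by side on the minus strand of chromosome 1 (mm10), where a piece of mitochondrial DNA was inserted into the nuclear genome. Gm28661 matched mt-Co2 without a difference over 681 bases, Gm28437 matched mt-Co3 over 783, Gm10925 matched mt-Atp6 over 678 and Gm10222 matched mt-Nd4l over 294. Gm28438 differed from mt-Nd3 at 1 of 345 bases, and Gm29216 from the last 483 of the 1545 bases of mt-Co1 at 1. No other nuclear gene of the table matched a mitochondrial gene at 99% identity or more. The copy of mt-Nd4, Gm28439, matches 876 of its 1378 bases without a difference and is not analysed here, so mt-Nd4 is given without a copy and its values carry that uncertainty. The sequences below, from the GENCODE transcripts of this build, show how little there is to tell such reads apart. The opening 90 bases of mt-Co2 (chrM:7013-7696, plus strand) are those of Gm28661 (chr1:24614885-24615565, minus strand). Capitals in the other lines mark the 1 base that differs, T3C in mt-Nd3 and A1066T in mt-Co1, with the mitochondrial base written before the copy's and positions counted from 1 at the 5′ end of the mitochondrial gene.
mt-Co2: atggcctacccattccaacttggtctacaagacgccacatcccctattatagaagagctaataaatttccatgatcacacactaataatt
Gm28661: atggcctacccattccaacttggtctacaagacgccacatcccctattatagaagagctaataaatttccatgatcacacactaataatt
mt-Nd3: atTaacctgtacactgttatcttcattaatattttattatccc
Gm28438: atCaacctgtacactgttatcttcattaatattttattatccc
mt-Co1: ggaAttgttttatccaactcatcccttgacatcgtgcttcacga
Gm29216: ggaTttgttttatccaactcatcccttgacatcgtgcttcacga

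For each of the 6 genes with a copy in the table except mt-Co1, the table gave most of the reads to the nuclear copy in nearly every library. mt-Co2, a catalytic subunit of complex IV, had 361, 221, 350 and 471 normalized counts in BKO ligated, 0, 552, 0, 146 and 0 in BKO intact, 579, 0, 314 and 291 in WT ligated and 0 in all 5 WT intact libraries. Its copy Gm28661 had 112200, 109319, 135192 and 106332 in BKO ligated, 210558, 238378, 221991, 281856 and 242126 in BKO intact, 108723, 128782, 117968 and 115218 in WT ligated and 264803, 210554, 225665, 232834 and 279612 in WT intact libraries. The mitochondrial gene therefore held none or nearly none of the reads of a sequence that was abundant in every library. mt-Co3 held 0.278% to 3.14% of the reads of itself and its copy over the 18 libraries, mt-Atp6 7.38% to 20.8%, mt-Nd3 7.02% to 33.0%, mt-Nd4l 8.91% to 52.1% and mt-Co1, whose copy covers only its end, 83.5% to 94.8%.

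The share left on the mitochondrial gene differed between the groups. For mt-Nd3 it was 28.3% ± 4.30 (SD, n = 4) in BKO ligated, 11.2% ± 2.67 (SD, n = 5) in BKO intact, 26.9% ± 3.59 (SD, n = 4) in WT ligated and 11.5% ± 3.04 (SD, n = 5) in WT intact libraries, so ligated and intact limbs did not overlap. For mt-Nd4l it was 40.8% ± 14.7 (SD, n = 4) in BKO ligated, 12.7% ± 2.20 (SD, n = 5) in BKO intact, 25.98% ± 4.58 (SD, n = 4) in WT ligated and 13.8% ± 3.14 (SD, n = 5) in WT intact libraries. For this reason each of these 6 genes is given below also as its sum with its copy, a choice made after these values were seen. The table does not tell which of the summed reads came from the nuclear genome.

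**Figure D1:**
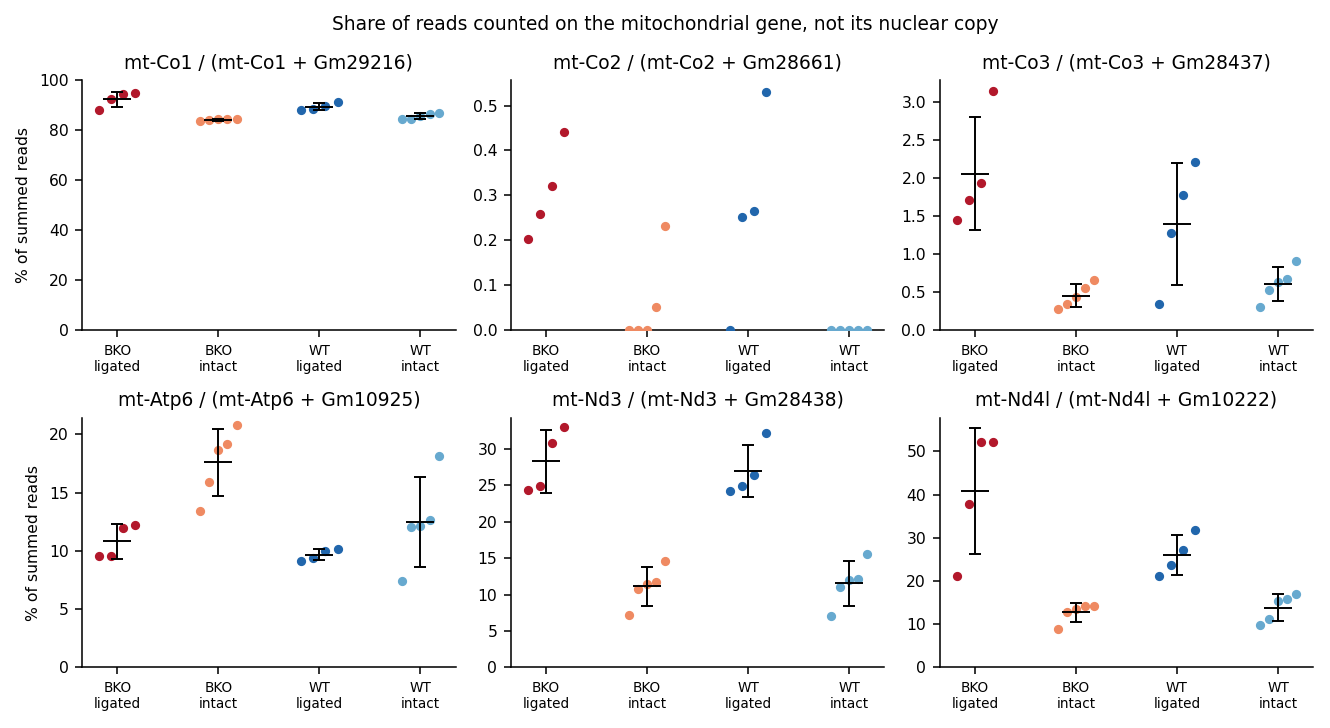
Percent of the reads of a mitochondrial gene and its nuclear copy that the table gives to the mitochondrial gene, for 6 genes and each library (points), with the mean and SD of each group except for mt-Co2, which is at 0 in some libraries; the scales of the panels differ. mt-Co1 stays between 83.5% and 94.8%, and for mt-Nd3 every ligated library lies above every intact one.

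Depth was 14.1 to 25.6 M recovered reads per library, and the 18 libraries showed the markers of skeletal muscle. The 7 fibre markers summed to 736604 to 1268810 normalized counts per library, and the normalized count of the skeletal actin Acta1 was 88280 to 129501. Bmal1 (symbol Arntl) had 63.8 to 82.0 normalized counts in BKO ligated, 42.4 to 61.1 in BKO intact, 12.2 to 18.3 in WT ligated and 41.3 to 68.4 in WT intact libraries, so in ligated limbs every library labelled BKO lay above every WT one. The count sums all exons and no source used here names the deleted exon, so it does not check the labels. In bulk muscle, fewer cells of a type and less RNA per cell cannot be told apart. Adipocyte, endothelial and fibro-adipogenic markers were higher and fibre markers lower in each ligated group. The part of these cells in the results on ligation was not tested. The 6 adipocyte markers summed to 3470 ± 1187 (SD, n = 4) in BKO ligated against 764 ± 44.0 (SD, n = 5) in BKO intact, and to 5376 ± 874 (SD, n = 4) in WT ligated against 809 ± 79.97 (SD, n = 5) in WT intact libraries. The fibre markers summed to 891884 ± 41159 (SD, n = 4) in BKO ligated against 1139600 ± 84554 (SD, n = 5) in BKO intact, and to 784517 ± 52489 (SD, n = 4) in WT ligated against 1142680 ± 82084 (SD, n = 5) in WT intact libraries. The 4 endothelial markers summed to 2991 to 3993 in BKO ligated against 1676 to 2232 in BKO intact, and to 2759 to 3672 in WT ligated against 1548 to 1903 in WT intact libraries. The 3 fibro-adipogenic markers summed to 4514 to 6644 in BKO ligated against 2317 to 3516 in BKO intact, and to 6426 to 6854 in WT ligated against 3331 to 4387 in WT intact libraries. None of these ranges overlapped between the limbs of a genotype. The 4 macrophage markers summed to 143 to 266 in BKO ligated against 111 to 219 in BKO intact libraries, which overlapped, and to 287 to 348 in WT ligated against 173 to 235 in WT intact libraries, which did not. The 3 blood markers summed to 1120 to 1261 in BKO ligated against 1318 to 2455 in BKO intact libraries, without overlap, and to 1251 to 1501 in WT ligated against 1113 to 1829 in WT intact libraries. No marker was at 0 in all libraries.

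The 2 ribosomal RNAs, mt-Rnr1 of the small and mt-Rnr2 of the large ribosomal subunit, together took 50.2%, 59.5%, 64.1% and 46.8% of all reads in BKO ligated libraries, 39.3%, 42.0%, 40.7%, 41.9% and 42.8% in BKO intact, 44.8%, 51.5%, 43.5% and 47.7% in WT ligated and 37.8%, 40.4%, 38.4%, 37.8% and 39.5% in WT intact libraries. Each ligated library lay above every intact one of its genotype, and BKO ligated libraries 4 and 5 lay above all others. The 13 mRNAs with their copies ran the other way, at 6.47%, 5.13%, 5.89% and 6.34% of reads in BKO ligated, 11.7%, 12.05%, 11.2%, 13.2% and 12.5% in BKO intact, 7.16%, 7.17%, 7.44% and 7.04% in WT ligated and 15.5%, 12.4%, 13.9%, 13.3% and 15.1% in WT intact libraries. Here ligated and intact limbs of a genotype did not overlap either, and within ligated limbs all BKO libraries lay below all WT libraries. Shares of 1 total are tied, as a higher ribosomal share leaves less for the mRNAs. In normalized counts with copies summed, the 13 mRNAs had a median log2 fold change of 0.05 in ligated limbs, BKO over WT, and ranged from -0.09 to 0.44. For ligation in WT the ribosomal RNAs stood at -0.24 (mt-Rnr1) and 0.15 (mt-Rnr2) in normalized counts, with adjusted p = 0.300 and 0.622 by limma. Reads of the ribosomal RNAs outnumbered those of the mRNAs 9.41 ± 2.15 times (SD, n = 4) in BKO ligated, 3.42 ± 0.174 times (SD, n = 5) in BKO intact, 6.52 ± 0.589 times (SD, n = 4) in WT ligated and 2.78 ± 0.306 times (SD, n = 5) in WT intact libraries. The shares and ratios are sums over genes and carry no test. No source used here says whether ribosomal RNA was depleted.

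**Figure D2:**
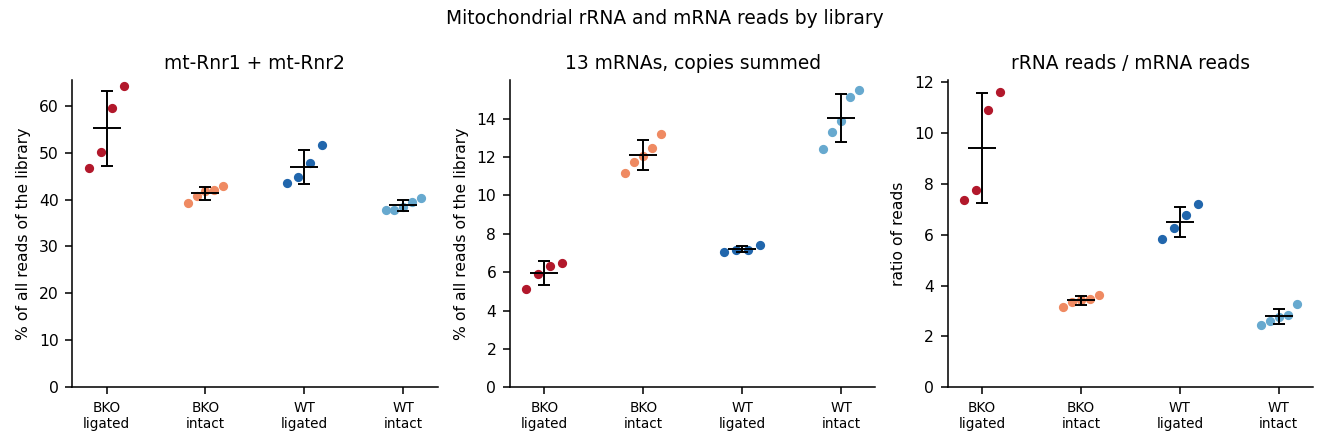
Percent of all reads taken by the 2 ribosomal RNAs (left) and by the 13 mRNAs with their nuclear copies (middle), and the ratio of these reads (right), for each library (points), with the mean and SD of each group. The ribosomal share is higher and the mRNA share lower in ligated than in intact limbs of each genotype, and the BKO ligated ratios spread most, from 7.37 to 11.6.

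Per length, the levels followed one order in the WT intact muscle. In normalized counts per kb, mt-Rnr2 stood at 4019690 ± 316063 and mt-Rnr1 at 1223660 ± 60791 (SD, n = 5 each). The complex IV and ATP synthase mRNAs came next, all summed with their copies: mt-Co1 at 482692 ± 55746, mt-Atp6 at 394587 ± 28519, mt-Co3 at 357188 ± 23675 and mt-Co2 at 354815 ± 41814 per kb (SD, n = 5 each). mt-Co3 and mt-Co2 did not differ beyond their spread. Lower levels were seen for mt-Nd1 at 275281 ± 28330, mt-Atp8 at 247363 ± 22955 and mt-Cytb at 236870 ± 24113 per kb (SD, n = 5 each), neighbours that also overlapped in spread. The lowest were mt-Nd2 at 168915 ± 19390, mt-Nd4 at 151380 ± 14976, mt-Nd3 with its copy at 105984 ± 7068, mt-Nd5 at 86717 ± 13528, mt-Nd4l with its copy at 43006 ± 4746 and mt-Nd6 at 7134 ± 349 per kb (SD, n = 5 each), of which mt-Nd2 and mt-Nd4 did not differ beyond their spread. mt-Nd6, a complex I subunit, is the 1 mRNA read from the other strand. mt-Nd4l and mt-Nd4 overlap on 1 strand, as do mt-Atp8 and mt-Atp6, and the 3′ ends of mt-Nd5 and mt-Nd6 overlap on opposite strands. No source used here gives the strand setting of the counting, and reads in these overlaps are uncertain.

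Ligation in BKO and in WT asked how the muscle of the ligated limb differed from that of the other side. In ligated WT muscle all 13 mitochondrial mRNAs were lower once the copies were summed, by log2 fold changes of -0.58 to -1.79. In ligated BKO muscle 10 of the 13 were lower and 3 complex I mRNAs, mt-Nd4l, mt-Nd4 and mt-Nd5, did not pass. mt-Nd4 was not summed, as its copy is not analysed here, and its values stay uncertain for that reason. Neither ribosomal RNA passed as lower in either genotype. A gene passed at an adjusted p under 0.05 by limma, with p-values adjusted over all tested genes by Benjamini and Hochberg, and fold changes are on the scale of log2(normalized count + 1), ligated over intact, with the standard error from limma. The 2 ligation comparisons use different libraries.

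As the table stands, without summing, 7 of the 15 genes were lower and 5 higher in ligated BKO muscle, and 9 were lower and 1 higher in ligated WT muscle. Over all tested genes the shares were 25.1% lower and 22.1% higher for ligation in BKO, and 21.1% lower and 18.7% higher for ligation in WT. With copies summed, 10 of 15 were lower and 2 higher in BKO (25.1% and 22.1% of all genes), and 13 lower and none higher in WT (21.1% and 18.7% of all genes). The mRNAs called higher alone, mt-Co2 and, in BKO, also mt-Co3 and mt-Nd4l, were lower or not called with their copies; the call of mt-Co2 alone rests on libraries listed at 0. mt-Co3 alone had 3296, 3215, 3404 and 5868 normalized counts in BKO ligated against 1278, 855, 683, 1292 and 1793 in BKO intact libraries, but with its copy 170617, 188642, 235090 and 187027 in BKO ligated against 234569, 254595, 245926, 298523 and 272315 in BKO intact libraries. The mitochondrial gene alone was thus higher in every ligated BKO library and the sum mostly lower, with 1 ligated library overlapping the intact ones. Its log2 fold change in BKO was 1.77 ± 0.43 (adjusted p = 0.00199) alone and -0.42 ± 0.10 (adjusted p = 0.00182) with the copy. The median of the 13 mRNAs with copies summed was -0.76 in BKO and -1.28 in WT, against -0.0037 and -0.0025 over all tested genes.

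Complex I held both the mRNA with the largest fall, with copies summed, and the 3 that did not pass in BKO. mt-Nd1 (ENSMUSG00000064341, chrM:2751-3707), a subunit of the proton-pumping membrane arm, had 80067, 79259, 91191 and 65360 normalized counts in BKO ligated against 212037, 225153, 210645, 251650 and 234824 in BKO intact libraries. In WT it had 69372, 86043, 76676 and 72504 in ligated against 295310, 239266, 252767, 240222 and 289655 in intact libraries. No ligated library reached an intact one, and the fall was 2.87-fold in BKO and 3.46-fold in WT by the group means. Its log2 fold change was -1.53 ± 0.11 (adjusted p = 1.49e-09) in BKO and -1.79 ± 0.11 (adjusted p = 2.70e-10) in WT, and the difference between these, 0.26 ± 0.15 (adjusted p = 0.324), did not pass.

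mt-Nd5 (ENSMUSG00000064367, chrM:11742-13565), another subunit of the membrane arm, was lower in ligated WT muscle and did not pass in BKO. It had 88862, 86289, 104022 and 63587 normalized counts in BKO ligated against 75147, 62589, 71928, 94240 and 96476 in BKO intact libraries, which overlapped. In WT it had 49123, 85769, 63661 and 64530 in ligated against 167380, 190805, 159811, 123438 and 149423 in intact libraries, with no overlap. Its log2 fold change was 0.10 ± 0.17 (adjusted p = 0.665) in BKO and -1.28 ± 0.17 (adjusted p = 4.28e-06) in WT. mt-Nd4 (ENSMUSG00000064363, chrM:10167-11544) had 99275, 98478, 127197 and 75582 in BKO ligated against 115247, 109206, 115773, 144976 and 140339 in BKO intact libraries, and 67437, 106543, 79247 and 82347 in WT ligated against 225195, 223491, 210859, 173953 and 209510 in WT intact libraries. The BKO limbs overlapped and the WT limbs did not. The log2 fold change of mt-Nd4 was -0.34 ± 0.14 (adjusted p = 0.0591) in BKO and -1.33 ± 0.14 (adjusted p = 3.78e-07) in WT. In BKO it passed on the share of all reads (-0.55, adjusted p = 0.00113), a scaling that also put the median of all tested genes lower, as given below. mt-Nd4 in BKO also passed without BKO ligated libraries 4 and 5 (-0.52, adjusted p = 0.0186), and without BKO ligated library 5, BKO intact library 2 or WT ligated library 4 alone (adjusted p = 0.0131, 0.0468 and 0.0402).

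Of the other complex I mRNAs, mt-Nd2 changed by -0.76 ± 0.14 (adjusted p = 0.000155) in BKO and -1.73 ± 0.14 (adjusted p = 9.09e-09) in WT, and mt-Nd3 with its copy by -1.07 ± 0.09 in both (adjusted p = 1.84e-08 in BKO and 2.19e-08 in WT). mt-Nd6 changed by -0.46 ± 0.16 (adjusted p = 0.0239) in BKO, and by -1.41 ± 0.16 (adjusted p = 8.60e-07) in WT. The BKO call of mt-Nd6 ended by edgeR (adjusted p = 0.0623), with scaling to the reads of other genes (0.0945), with only the groups compared (0.0588), and without BKO ligated library 2 or 6 (0.106 and 0.11) or BKO intact library 2 or 4 (0.0651 and 0.0537). mt-Nd4l with its copy stood at -0.16 ± 0.18 (adjusted p = 0.489) in BKO and changed by -1.11 ± 0.18 (adjusted p = 4.41e-05) in WT. In BKO it passed as lower on the share of all reads (-0.37, adjusted p = 0.0329) and without BKO ligated libraries 4 and 5 (-0.49, adjusted p = 0.0461). The share of all reads also put the median of all tested genes lower in this comparison, as given below.

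The 3 complex IV mRNAs, the catalytic core that passes electrons to oxygen, fell in both genotypes. mt-Co1 (ENSMUSG00000064351, chrM:5328-6872) with its copy had 364755, 349742, 404683 and 358640 normalized counts in BKO ligated against 660816, 731770, 698482, 776693 and 714952 in BKO intact libraries. In WT the sums were 380450, 399668, 402233 and 390134 in ligated against 834411, 659126, 686854, 706308 and 842096 in intact libraries. The groups did not overlap in either genotype, and the log2 fold change was -0.96 ± 0.10 (adjusted p = 4.00e-07) in BKO and -0.92 ± 0.10 (adjusted p = 7.31e-07) in WT. mt-Co2 with its copy changed by -1.04 ± 0.11 in BKO (adjusted p = 2.00e-07) and -1.04 ± 0.11 in WT (adjusted p = 2.24e-07), and mt-Co3 with its copy by -0.58 ± 0.10 in WT (adjusted p = 0.000126).

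Complex III and the ATP synthase followed. mt-Cytb, cytochrome b and the only mitochondrial subunit of complex III (ENSMUSG00000064370, chrM:14145-15288), changed by -0.74 ± 0.13 (adjusted p = 0.000109) in BKO and -1.24 ± 0.13 (adjusted p = 3.33e-07) in WT. mt-Atp8 and mt-Atp6, which encode parts of the proton channel side of the ATP synthase, are read from 1 mRNA whose coding sequences overlap by 43 bases. The overlap, chrM:7927-7969 on the plus strand, is shown in capitals between 20 bases on each side, because reads within it belong to either gene.
mt-Atp8/mt-Atp6: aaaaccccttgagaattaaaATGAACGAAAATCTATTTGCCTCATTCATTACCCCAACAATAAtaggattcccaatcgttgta
mt-Atp8 changed by -1.08 ± 0.12 (adjusted p = 5.08e-07) in BKO and -1.43 ± 0.12 (adjusted p = 1.45e-08) in WT. mt-Atp6 with its copy changed by -1.003 ± 0.11 (adjusted p = 6.21e-07) in BKO and -1.43 ± 0.11 (adjusted p = 7.19e-09) in WT.

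The ribosomal RNAs were higher in ligated BKO muscle, and these calls were not stable when libraries were left out. mt-Rnr2 (ENSMUSG00000064339, chrM:1094-2675) had 8372150, 12761500, 14516600 and 7355310 normalized counts in BKO ligated against 5983610, 6615950, 6651750, 7102120 and 6804230 in BKO intact libraries. In WT it had 6170890, 8652800, 6270420 and 7270190 in ligated against 6039770, 7117210, 6050990, 5962270 and 6625460 in intact libraries. The BKO groups did not overlap and the WT groups did. Its log2 fold change was 0.64 ± 0.22 (adjusted p = 0.0198) in BKO and that of mt-Rnr1 was 0.46 ± 0.18 (adjusted p = 0.0378). Without BKO ligated libraries 4 and 5, a choice made after seeing the data, the values were 0.25 (adjusted p = 0.388) for mt-Rnr2 and 0.06 (adjusted p = 0.788) for mt-Rnr1. Without library 4 alone they were 0.54 (adjusted p = 0.0728) and 0.37 (adjusted p = 0.125), and without library 5 alone 0.48 (adjusted p = 0.0724) and 0.28 (adjusted p = 0.172). The call of mt-Rnr1 also ended without BKO intact library 1, 2, 3 or 4 (adjusted p = 0.0803, 0.0663, 0.0571 and 0.0508) and on the share of all reads (0.25, adjusted p = 0.152). Both calls, mt-Rnr2 first, ended when only the BKO libraries were fitted (adjusted p = 0.0832 and 0.103) and with no filter on low values (adjusted p = 0.502 and 0.288).

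**Figure D3:**
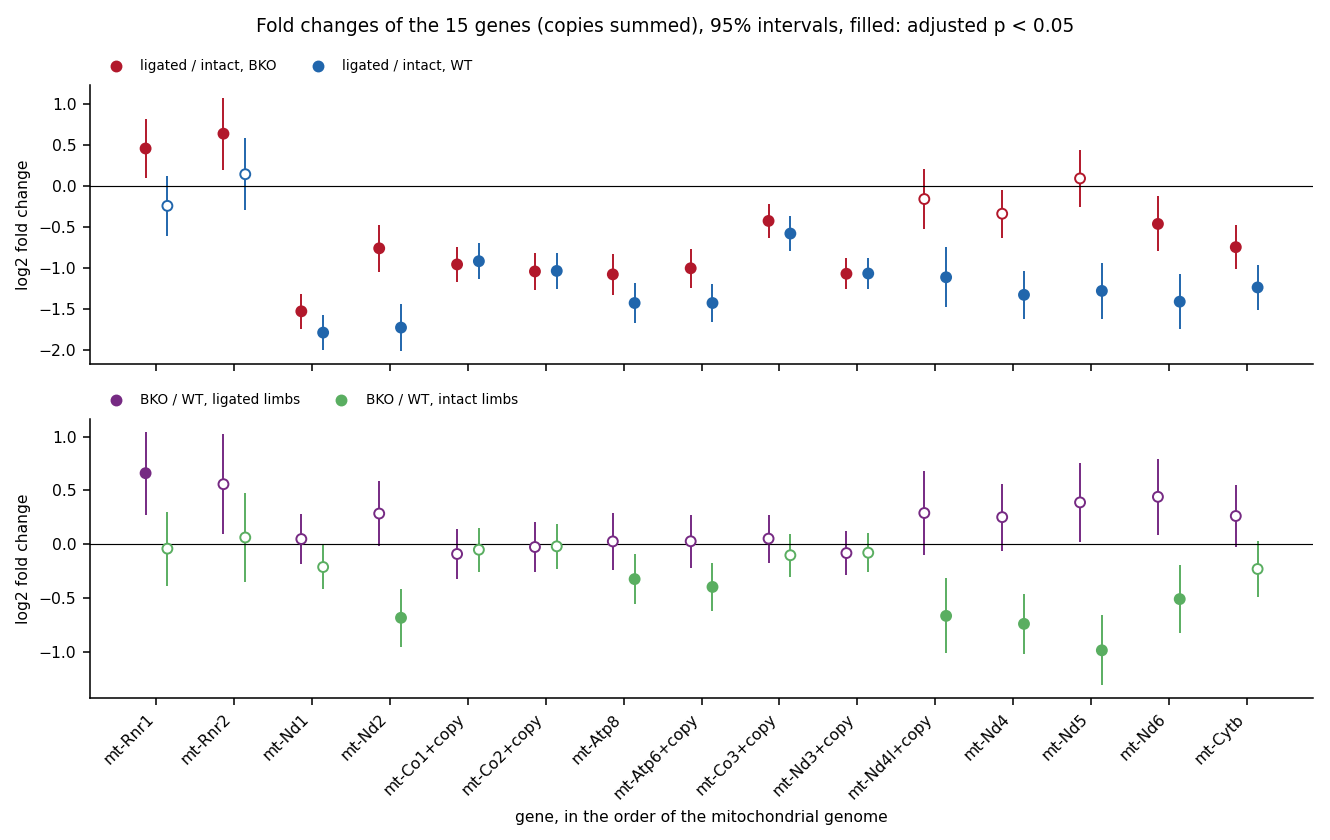
log2 fold change of the 15 genes in the order of the mitochondrial genome, with copies summed for the 6 genes whose copy is in the table, for ligation in each genotype (top) and for knockout in each limb (bottom); lines are 95% intervals and filled points passed at adjusted p under 0.05. All 13 mRNAs lie below 0 for ligation in WT, and mt-Nd4l, mt-Nd4 and mt-Nd5 are open points for ligation in BKO.

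Knockout in intact limbs compared the groups labelled BKO and WT without ligation; the Bmal1 counts given above do not show its loss. In BKO intact muscle 5 of the 15 genes were lower and none higher, where 9.75% of all tested genes were lower and 8.56% higher. The 5 were mt-Nd2, mt-Nd4, mt-Nd5 and mt-Nd6 of complex I and mt-Atp8 of the ATP synthase. With copies summed, mt-Nd4l and mt-Atp6 joined them, for 7 of 15 lower and none higher (9.75% and 8.57% of all tested genes). Neither ribosomal RNA and none of the complex III and IV mRNAs passed by limma, and none of the 15 was higher at an unadjusted p under 0.05. edgeR and DESeq2 also called mt-Co2 alone, which is listed at 0 in all WT intact libraries. mt-Co1 and mt-Co2 with their copies stood at -0.05 (95% interval -0.26 to 0.15) and -0.02 (95% interval -0.23 to 0.19).

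The largest difference was that of mt-Nd5, whose 75147, 62589, 71928, 94240 and 96476 normalized counts in BKO intact libraries stood against 167380, 190805, 159811, 123438 and 149423 in WT intact libraries. The log2 fold change was -0.99 ± 0.16 (adjusted p = 0.000130), a fall of 1.98-fold by the group means. mt-Nd4 changed by -0.74 ± 0.13 (adjusted p = 0.000506), and its 5 values in BKO intact libraries lay below all 5 of WT intact libraries, as did those of mt-Nd5. mt-Nd2 (ENSMUSG00000064345, chrM:3914-4951) had 106274, 96897, 95458, 130199 and 117360 in BKO intact against 200259, 176228, 173701, 144492 and 181989 in WT intact libraries, and changed by -0.68 ± 0.13 (adjusted p = 0.000825).

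Smaller values were seen for the remaining genes. mt-Nd6 (ENSMUSG00000064368, chrM:13552-14070, minus strand) had 2581, 3151, 2545, 2893 and 1968 in BKO intact against 3527, 3999, 3691, 3592 and 3705 in WT intact libraries, with no overlap, and changed by -0.51 ± 0.15 (adjusted p = 0.0229). mt-Nd4l with its copy changed by -0.67 ± 0.17 (adjusted p = 0.00744) and mt-Atp6 with its copy by -0.40 ± 0.11 (adjusted p = 0.0118), again without overlap, whereas mt-Atp6 alone stood at 0.14 and did not pass. mt-Atp8, at -0.33 ± 0.11 (adjusted p = 0.0493), lay at the threshold and lost its call when any 1 of 13 of the 18 libraries was left out. mt-Nd6 lost it without BKO intact library 5 (adjusted p = 0.0677) or WT intact library 3 (adjusted p = 0.0554). With scaling to the reads of other genes, mt-Nd6, mt-Atp8 and mt-Atp6 with its copy lost their calls (adjusted p = 0.0514, 0.154 and 0.0524). mt-Nd1, at -0.21, mt-Cytb, at -0.23, and mt-Nd3 with its copy, at -0.08, did not pass. Of the 6 marker sums, that of the fibro-adipogenic list differed between these 2 groups by more than the larger of their SDs, at 3056 ± 490 (SD, n = 5) in BKO intact against 3928 ± 437 (SD, n = 5) in WT intact libraries, with overlap, and its part in these results was not tested.

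**Figure D4:**
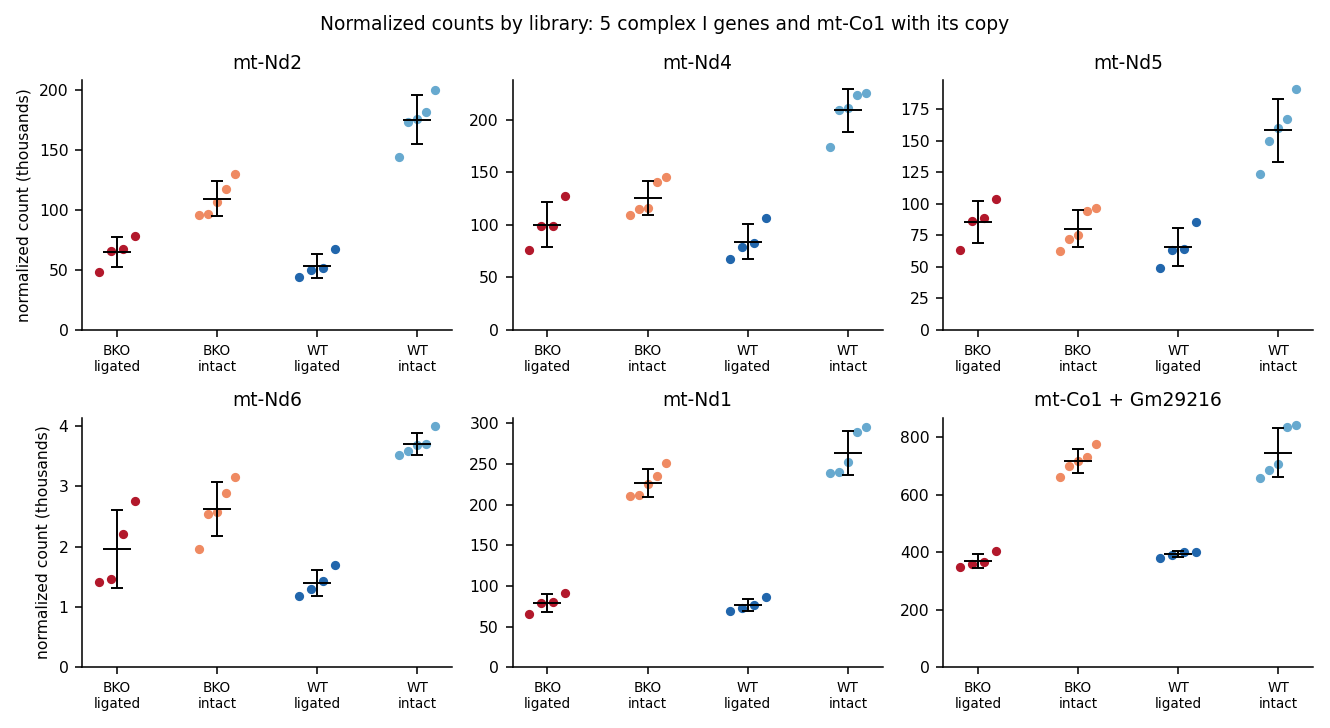
Normalized counts of 5 complex I genes and of mt-Co1 with its copy, for each library (points), with the mean and SD of each group. In mt-Nd2, mt-Nd4, mt-Nd5 and mt-Nd6 all 5 WT intact libraries lie above the other 13 libraries, and in mt-Nd1 and mt-Co1 both intact groups lie above both ligated groups.

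Knockout in ligated limbs gave few differences among these genes. By the marker sums given above, cell make-up was not matched between these groups. The means of the fibre markers were higher and those of the adipocyte markers lower in BKO ligated than in WT ligated libraries. Macrophage markers were lower without overlap, and the endothelial, fibro-adipogenic and blood sums overlapped. Their part in this comparison and in the interaction was not tested. mt-Rnr1 was the 1 gene of 15 that passed, higher in BKO (4.16% of all tested genes were higher and 4.68% lower), also with copies summed (4.16%). It had 1324900, 1877800, 2257000 and 1058020 normalized counts in BKO ligated against 871255, 1192310, 889132 and 1033760 in WT ligated libraries. The groups overlapped, the log2 fold change was 0.66 ± 0.19 (adjusted p = 0.02998), and without BKO ligated libraries 4 and 5 it was 0.26 (adjusted p = 0.465). The call also ended without library 4 or 5 alone (adjusted p = 0.0967 and 0.109) and without WT ligated library 2, 5 or 6 (adjusted p = 0.0973, 0.0909 and 0.0546), with only the groups compared (0.174) and with no filter on low values (0.296). None of the 13 mRNAs passed by limma, and 3 of them taken alone, mt-Nd4l, mt-Nd5 and mt-Nd6, had an unadjusted p under 0.05. edgeR and DESeq2 each called 3 of the 15 genes, adding mt-Rnr2 and mt-Nd4l without its copy. With copies summed, the mRNAs stood between -0.09 and 0.44, with a median of 0.05 against -0.021 over all tested genes. These values depend on the scaling. On the share of all reads mt-Rnr1 stood at 0.31 and lost its call (adjusted p = 0.105, or 0.0987 with copies summed), and with scaling to the reads of other genes at 0.58 (adjusted p = 0.0517). On the share of all reads, mt-Co1, mt-Co2, mt-Nd3 and mt-Atp6 with their copies passed as lower in BKO, by -0.44, -0.37, -0.43 and -0.32. That scaling put the median of all tested genes at -0.36 in this comparison, -0.21 for ligation in BKO, 0.17 for ligation in WT, 0.04 for knockout in intact limbs and -0.39 for the interaction. Relative to the median of all genes the 4 mRNAs were then at less than 0.1 in size, as with the authors' scaling.

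The interaction, the log2 fold change of ligation in BKO less that in WT, passed for 5 of the 15 genes, all positive and all of complex I, where 3.04% of all tested genes were positive and 2.97% negative. With copies summed the same 5 passed (3.06% and 2.98% of all genes). None of the 15 was negative at an unadjusted p under 0.05 by limma, and DESeq2 called mt-Co2 alone, which is listed at 0 in all WT intact libraries, as negative. edgeR and DESeq2 also called mt-Rnr1 as positive (0.76, adjusted p = 0.0465 by edgeR and 0.0143 by DESeq2), where limma did not (0.70 ± 0.25, adjusted p = 0.0982). The values were 1.37 ± 0.24 for mt-Nd5 (adjusted p = 0.00273), 0.99 ± 0.20 for mt-Nd4 (adjusted p = 0.00807), 0.97 ± 0.20 for mt-Nd2 (adjusted p = 0.00803), 0.95 ± 0.23 for mt-Nd6 (adjusted p = 0.0184) and, with its copy, 0.96 ± 0.25 for mt-Nd4l (adjusted p = 0.0278). That of mt-Nd4 is without its copy. The 2 other complex I mRNAs did not pass, mt-Nd1 at 0.26 and mt-Nd3 with its copy at -0.0032. mt-Co1, mt-Co2 and mt-Co3 with their copies stood at -0.04, -0.01 and 0.15. Without BKO ligated libraries 4 and 5, mt-Nd4 and mt-Nd5 passed and mt-Nd2, mt-Nd6 and mt-Nd4l did not (0.80, 0.56 and 0.62, with adjusted p = 0.0502, 0.107 and 0.179, copies summed). Without library 4 or 5 alone the call of mt-Nd4l with its copy ended (adjusted p = 0.0589 and 0.0558). It also ended without BKO intact library 2 (0.0536) or WT ligated library 2, 5 or 6 (0.0722, 0.0606 and 0.0507), on the share of all reads (0.57, adjusted p = 0.0508) and with scaling to the reads of other genes (adjusted p = 0.0548). The interaction, knockout in intact limbs and ligation in WT share the WT intact libraries, which were the highest of the 4 groups for these genes, so the 3 comparisons are not independent.

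The make-up of the mRNA pool was set side by side as well. Of the reads of the 13 mRNAs and their copies, complex I mRNAs took 27.3% ± 2.13 (SD, n = 4) in BKO ligated, 25.7% ± 0.989 (SD, n = 5) in BKO intact, 24.5% ± 2.12 (SD, n = 4) in WT ligated and 31.6% ± 2.05 (SD, n = 5) in WT intact libraries. Complex IV mRNAs took 52.7% ± 3.07 (SD, n = 4) in BKO ligated, 53.4% ± 1.45 (SD, n = 5) in BKO intact, 56.6% ± 2.59 (SD, n = 4) in WT ligated and 46.6% ± 1.83 (SD, n = 5) in WT intact libraries. mt-Nd5 alone took 6.57% ± 0.681 (SD, n = 4) in BKO ligated, 3.50% ± 0.462 (SD, n = 5) in BKO intact, 5.27% ± 0.776 (SD, n = 4) in WT ligated and 5.84% ± 1.01 (SD, n = 5) in WT intact libraries. Its share of the pool was lowest in BKO intact muscle, whose 5 libraries lay below all others. These shares do not depend on the scaling of the libraries.

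Ratios of 2 genes within a library, which do not depend on the scaling either, were compared by exact two-sided permutation tests, 16 in all. None passed after Benjamini-Hochberg adjustment over the 16. The smallest adjusted p was 0.0508, or 0.0457 without BKO intact library 5, and the smallest exact p that 4 against 5 libraries allow is 0.0159. A single test at that limit cannot pass after adjustment. The outcome thus depends on how many tests reach it and says little about any given ratio. mt-Rnr1 outnumbered mt-Nd1, the mRNA that follows the ribosomal RNAs on the heavy strand, 20.3 ± 4.56 times (SD, n = 4) in BKO ligated, 5.02 ± 0.349 times (SD, n = 5) in BKO intact, 13.1 ± 1.22 times (SD, n = 4) in WT ligated and 4.48 ± 0.557 times (SD, n = 5) in WT intact libraries. The difference in mean log2 ratio was 1.99 for ligation in BKO and 1.55 for ligation in WT, both with an exact permutation p of 0.0159 (adjusted p = 0.0508), without overlap. It was 0.61 for knockout in ligated limbs, with an exact permutation p of 0.0286 (adjusted p = 0.0635), the smallest that 4 against 4 libraries allow, again without overlap.

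mt-Rnr2 outnumbered mt-Rnr1 6.62 ± 0.298 times (SD, n = 4) in BKO ligated, 5.84 ± 0.255 times (SD, n = 5) in BKO intact, 7.11 ± 0.103 times (SD, n = 4) in WT ligated and 5.44 ± 0.206 times (SD, n = 5) in WT intact libraries. Ligated libraries lay above intact ones in each genotype (exact permutation p = 0.0159 in both, adjusted p = 0.0508). The ratio of mt-Atp8 to mt-Atp6, which share an mRNA, ranged from 0.92 to 2.62 over the 18 libraries on the genes alone, and from 0.173 to 0.208 with the copy of mt-Atp6 summed. The ratio of mt-Nd6 to its neighbour mt-Nd5 was 0.0227 ± 0.00456 (SD, n = 4) in BKO ligated, 0.0342 ± 0.0108 (SD, n = 5) in BKO intact, 0.0216 ± 0.00199 (SD, n = 4) in WT ligated and 0.0238 ± 0.00336 (SD, n = 5) in WT intact libraries, and no comparison of it passed (exact permutation p of at least 0.0714).

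Nuclear subunits of the same complexes were higher in BKO intact muscle. Of 58 listed subunits of complexes I, III, IV and V, 56 were higher and none lower (8.56% and 9.75% of all tested genes), with a median log2 fold change of 0.45 and a range of 0.12 to 0.75, where the 13 mitochondrial mRNAs with copies summed ranged from -0.99 to -0.02. In complex I, 24 of 25 nuclear subunits were higher, such as the matrix-arm core subunit Ndufs3 (0.54 ± 0.09), and 5 of 7 mitochondrial mRNAs were lower. In complex IV all 10 nuclear subunits were higher, among them Cox5a (0.62 ± 0.08), and none of the 3 mitochondrial ones passed. All 9 nuclear complex III subunits and 13 of 14 of complex V were higher. In the interaction, 27 of the 58 (46.6%) were negative and none positive, against 2.97% and 3.04% of all tested genes, with a median of -0.42, where the mitochondrial mRNAs that passed were positive. For ligation in BKO, 9 of the 58 (15.5%) were higher and 27 (46.6%) lower (median -0.18), against 22.1% and 25.1% of all tested genes. For ligation in WT 26 (44.8%) were higher and 7 (12.1%) lower (median 0.19), against 18.7% and 21.1% of all tested genes.

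**Figure D5:**
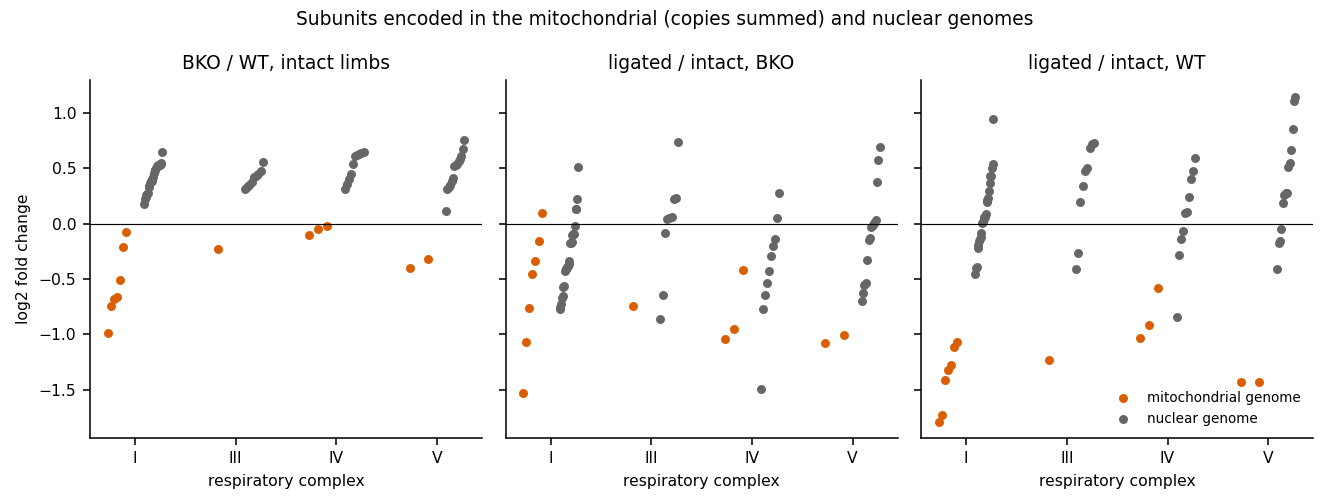
log2 fold changes of subunits encoded by the mitochondrial genome (copies summed) and by the nuclear genome, by respiratory complex, for knockout in intact limbs and for ligation in BKO and in WT; each point is a gene. For knockout in intact limbs the nuclear subunits range from 0.12 to 0.75 and the mitochondrial ones from -0.99 to -0.02.

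Nuclear genes that copy, transcribe, cut, stabilise or modify mitochondrial nucleic acids were taken from a list by role. Of 48 listed, 46 were tested. For ligation in BKO 1 was higher and 21 (45.7%) lower (median -0.36), against 22.1% and 25.1% of all tested genes. For ligation in WT none was higher and 13 (28.3%) lower (median -0.19), against 18.7% and 21.1%. For knockout in intact limbs 5 (10.9%) were higher and none lower (median 0.11), against 8.56% and 9.75%. The higher share was near that of all genes and the lower share was below it. For knockout in ligated limbs none passed in either direction, against 4.16% higher and 4.68% lower. Among transcription genes, Tfb2m, the factor that melts the promoter, changed by -0.64 ± 0.16 for ligation in BKO (adjusted p = 0.00283) and -0.66 ± 0.16 in WT (adjusted p = 0.00283). Tfam, which packs mitochondrial DNA and starts transcription, changed by -0.30 ± 0.12 in BKO and -0.31 ± 0.12 in WT (adjusted p = 0.0439 and 0.0400). Among replication genes, the topoisomerase Top1mt changed by -1.24 ± 0.15 in BKO and -1.14 ± 0.15 in WT (adjusted p = 2.14e-06 and 6.91e-06).

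Of 14 stability and decay genes, 6 (42.9%) were lower for ligation in BKO and 5 (35.7%) in WT, where 25.1% and 21.1% of all tested genes were lower. In BKO intact muscle 3 of them (21.4%) were higher, against 8.56% of all tested genes. These were Lrpprc (0.27 ± 0.09), its partner Slirp (0.44 ± 0.13) and Fastkd2 (0.41 ± 0.12), with adjusted p = 0.0482, 0.0247 and 0.0187. Lrpprc and Slirp protect mitochondrial mRNAs from decay, and Fastkd2 is an RNA-binding protein needed for the large ribosomal subunit. For ligation in BKO, Fastkd2 changed by -0.92 ± 0.12, Fastk by -0.57 ± 0.08, the exonuclease Rexo2 by -0.70 ± 0.14 and Lrpprc by -0.48 ± 0.10. Of 12 genes that cut and modify RNA, 1 (8.33%) was higher and 4 (33.3%) lower for ligation in BKO, and 3 (25%) were lower in WT. Of all tested genes, 22.1% were higher and 25.1% lower for ligation in BKO, and 21.1% were lower in WT. The RNase P subunits Hsd17b10 and Trmt10c changed by -0.59 ± 0.10 and -0.49 ± 0.11 for ligation in BKO. Hsd17b10 was also higher in BKO intact muscle (0.37 ± 0.09, adjusted p = 0.00733). In the interaction it was the 1 gene of the 46 (2.17%) that passed, as negative (-0.49 ± 0.14, adjusted p = 0.0404). Of all tested genes 2.97% were negative, so the share of the list was near that of all genes. Of 7 ribosomal RNA maturation genes, 4 (57.1%) were lower for ligation in BKO and none in WT, against 25.1% and 21.1% of all tested genes. The helicase Ddx28 changed by -0.73 ± 0.14 and the methyltransferase Tfb1m by -0.75 ± 0.22 in BKO (adjusted p = 0.000241 and 0.00810).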

How the data were processed

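Libraries of 18 tibialis anterior muscles came from a TruSeq kit for stranded total RNA, per the labels' protocols. Tools named, per the submitters' processing notes and with no role or order, are Trimmomatic 0.33, STAR 2.5.2, RSEM 1.3.3 and DESeq2, and the build is mm10; no source used here gives the annotation or strand setting. The authors' deposited values are a signal, normalized counts, each a whole number of reads divided by 1 size factor per library (100% whole within a tolerance of 0.001), from which reads and depth were recovered. They are not corrected for length, and counting error limits low genes.

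limma 3.58.1 (R 4.3.3) tested genes with a mean of at least 10, on the log2 scale with a pseudocount of 1 added to the deposited values, with 1 mean per group, eBayes with an intensity trend and Benjamini-Hochberg adjustment over all tested genes at 0.05, and was checked on simulated data. edgeR 4.0.16 and DESeq2 1.42.0 were run on the recovered reads as alternatives. Copies were found with BLAST 2.17.0 against GENCODE transcripts and summed at 99% identity or more. Ratios were tested with scipy 1.17.1. Values are printed for all 15 members where results turn on them and for up to 4 genes of smallest p per nuclear list. The members and lists were chosen with earlier results of these data known. Where samples are not separate animals, p-values reflect spread that may be technical.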

Additional observations from a re-analysis of the deposited data

Results flagged for a closer look

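Of 84 sets of libraries looked at (each gene, and each gene with its copy, in 4 groups), 3 held a library set apart from the rest by Dixon's test at the 95% level, which chance gives in about 1 of 20. mt-Co2 alone had 552 normalized counts in BKO intact library 2, where the next highest of its group had 146. mt-Co3 alone had 5868 in BKO ligated library 6, against 3404 for the next, and mt-Nd3 with its copy had 19880 in BKO ligated library 5, against 16061 for the next.

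The effect of ligation differed between BKO and WT by the interaction test for 5 complex I mRNAs, with a log2 difference of 0.97 for mt-Nd2, 0.99 for mt-Nd4, 1.37 for mt-Nd5, 0.95 for mt-Nd6 and 1.65 for mt-Nd4l, or 0.96 for mt-Nd4l with its copy. WT intact libraries were the highest of the 4 groups for all 5 genes, with copies summed for mt-Nd4l.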

How the results depend on the processing

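Sums with near-identical copies, chosen after seeing the data, turned the direction of 8 values that passed alone or with the copy. For ligation in BKO they gave -1.04 for mt-Co2, -0.42 for mt-Co3, -1.07 for mt-Nd3 and -0.16 for mt-Nd4l, for ligation in WT -1.04, -0.58 and -1.07 for mt-Co2, mt-Co3 and mt-Nd3, and for knockout in intact limbs -0.40 for mt-Atp6. The cause was not tested. A further 4 values that passed neither way also changed sign, mt-Co2 for knockout in intact and in ligated limbs and mt-Co1 and mt-Nd3 in the interaction. On the share of all reads, mt-Atp6 with its copy stood at -0.32 for knockout in ligated limbs.

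For knockout in intact limbs, 3 genes alone and 4 with copies summed passed when libraries were scaled to the reads of other genes, and 3 to 6 alone when each library was left out. For knockout in ligated limbs the count of 1 became 0 with no filter on low values, with scaling to other genes, with only the groups compared and without BKO ligated libraries 4 and 5, and 3 by edgeR and by DESeq2. Leaving out each library gave 0 to 3, alone and with copies summed. With copies summed it was 2 by edgeR, and 0 with scaling to other genes or without BKO ligated libraries 4 and 5. On the share of all reads, with copies summed, the count was 4. These were mRNAs called lower, and mt-Rnr1, called higher in the main test, was not among them. That scaling also put the median of all tested genes lower, as given above. The interaction called 2 genes without BKO ligated libraries 4 and 5, alone and with copies summed. Counts under the other alternatives stayed within 1.5 times.

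Leaving out each library moved the log2 ratio of mt-Rnr2 to mt-Rnr1 between 0.15 and 0.20 for ligation in BKO, 0.37 and 0.40 in WT, 0.085 and 0.13 for knockout in intact limbs and -0.13 and -0.080 in ligated limbs. That of mt-Rnr1 to mt-Nd1 moved between 1.89 and 2.09, 1.49 and 1.61, and, for knockout in ligated limbs, 0.51 and 0.71. That of mt-Atp8 to mt-Atp6 moved between 0.55 and 0.72 for ligation in BKO on the genes alone. With the copy of mt-Atp6 summed and all libraries kept, this difference was -0.07, in the other direction. The log2 ratio of mt-Nd6 to mt-Nd5 moved between -0.73 and -0.40 for ligation in BKO and 0.32 and 0.65 for knockout in intact limbs. Without BKO intact library 5, 10 of the permutation tests of ratios passed, with an adjusted p of 0.0457. Ligation in BKO then compared 4 against 4 libraries, for which the smallest exact permutation p is 0.0286. As in the main run, the outcome depends on how many tests reach such a limit together and says little about any given ratio.

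As a share of mitochondrial reads, ligation in BKO gave a fold of 1.11 for ribosomal RNAs and 0.427 for mRNAs, ligation in WT 0.459 and knockout in ligated limbs 0.759 for mRNAs. For ligation in WT the mRNA fold was 0.489 on the genes alone, 0.477 to 0.504 when each library was left out, and 0.513 with copies summed.

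The labels do not say whether equal sample numbers are limbs of 1 mouse. The values cannot decide it, since a weak effect of the mouse would leave little correlation. Deviations of the 7 same-numbered pairs correlated at -0.0638 to 0.0478, and with the replicate block the genes alone gave 12 calls for ligation in BKO, 10 in WT, 5 for knockout in intact and 1 in ligated limbs, and 5 for the interaction, the same counts as without it.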
